A study of Mus musculus with 2 samples.

Results

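DNA repair genes were followed in mouse iPSCs, which are body cells reprogrammed to pluripotency. The genes were taken by symbol: the Fanconi genes Fanca to Fancm, the Rad, Xrcc, Ercc, Msh, Mlh and Parp genes of the main repair routes, Brca1 and Brca2, and Atm, Atr, Chek1, Chek2, Mre11a, Nbn, Blm, Ung and Apex1. This gave 51 genes on 91 probe sets, out of 12393 genes that the array reads with at least 1 probe set naming no other gene. Some genes of these routes, such as Fancd2, Ercc6, Xrcc2 and Xrcc3, were not analysed here. The symbols also took Ercc6l, a helicase of mitotic DNA bridges, Rad54l2, a chromatin protein that binds steroid receptors, and Ercc6l2, a relative of Ercc6 linked to end joining.

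The study has 2 samples, 1 labelled hybridized and 1 labelled live, both iPSCs kept in serum medium for mouse embryonic stem cells with 2i, inhibitors of Mek and Gsk3 that keep such cells naive. RNA from each was amplified, labelled with biotin and read on 1 array. The labels give no strain, sex, passage or line of origin, nor the probe or the preparation used for hybridization. The comparison asks how far the transcript levels read from hybridized cells depart from those of live cells. With 1 array a group there is no test and no replicate error. Values are the deposited levels on a scale taken as log2, given throughout for the hybridized sample first and the live sample second, and a difference is the first minus the second. The call of 2-fold needs a log2 difference of at least 1 in size. Genes were compared where the brightest probe set averaged 5 or more over both arrays, which is a chosen limit and shows no presence. In bulk RNA, fewer cells of a type and less RNA per cell cannot be told apart.

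The pluripotency markers were present, with all 10 listed genes at the level and values from 8.79 to 13.17 over both arrays. The endoderm markers were all under it, as were the 3 mesoderm markers measured, while Col1a1, Col5a1 and Vim of 10 fibroblast markers, Krt8, Krt18 and Eomes of 5 trophectoderm markers and Tubb3 of 4 neural markers reached it. The summed log2 values of the fibroblast list were 40.78 (hybridized) and 47.34 (live), with Lum, Dcn and Col1a2 near the lower end on both. Col5a1 read 5.43 and 7.58 and Col1a1 4.46 and 6.17, both over 2-fold lower in the hybridized sample, while Vim read 12.92 and 13.07. Pdgfrb, with a mean under the level, read 3.62 and 5.22. The control probe sets that read the 5′ and 3′ parts of a transcript also differed. The 5′ probe set of Actb was 1.76 higher in the hybridized sample and its 3′ probe set differed by -0.76; those of Gapdh were 0.96 and -0.85. For Tfrc they were 1.88 and 1.38, with the live 5′ value under the level, and for Pcx, whose 5′ probe set was under it on both arrays, -0.13 and -1.12. The part of these differences in the results below was not tested.

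DNA is repaired by several routes that share parts. Breaks through both strands are joined end to end by the Ku proteins and their partners, or copied from a sister chromatid by homologous recombination, in which Brca1 and Brca2 take part. Crosslinks between strands need the Fanconi proteins, bulky lesions are cut out by nucleotide excision, damaged bases by base excision, and copying errors are removed by mismatch repair. Pluripotent cells divide fast, spend much of the cycle in S phase, and are known for strong homologous recombination.

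At the brightest probe set most repair genes read much the same in both samples. Of the 51 genes, 47 were compared; 30 lay within 1.5-fold, a range that held 52.7% of all genes compared. Higher by 2-fold or more in hybridized cells were 4 genes, namely Nbn, Rad52, Fancl and Ercc5, and lower by as much were 5, namely Fancf, Xrcc1, Ercc4, Parp3 and Ercc2. These make 8.51% and 10.6% of the genes, against 8.43% and 15.4% of all 7262 genes compared (together 19.1% against 23.8%), so the count of higher genes sits at the background and that of lower genes a little under it. Of the lower genes, Parp3 (4.77) and Ercc2 (4.41) were under 5 in hybridized cells and reached the level only through the live value. With its hybridized value Ercc2 could not reach the level without a 2-fold difference. The median difference was -0.24 for the repair genes and -0.165 for all genes, and the means were -0.10 and -0.16. The split between directions depends on the centring. It was 5 higher and 5 lower after centring on the median gene, where 11.1% of all genes were higher and 11.5% lower, and 6 and 3 after a loess correction for level, where the shares were 11.5% and 9.75%. Centring on the 18 bacterial hybridization controls, which adds 0.72 to every difference, gave 12 and 2, where 28% and 3.5% of all genes were called, with a median of 0.48 against 0.55 for all genes. That centring puts 75.4% of all genes above 0, against 41.1% as deposited with 58.5% below.

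**Figure D1:**
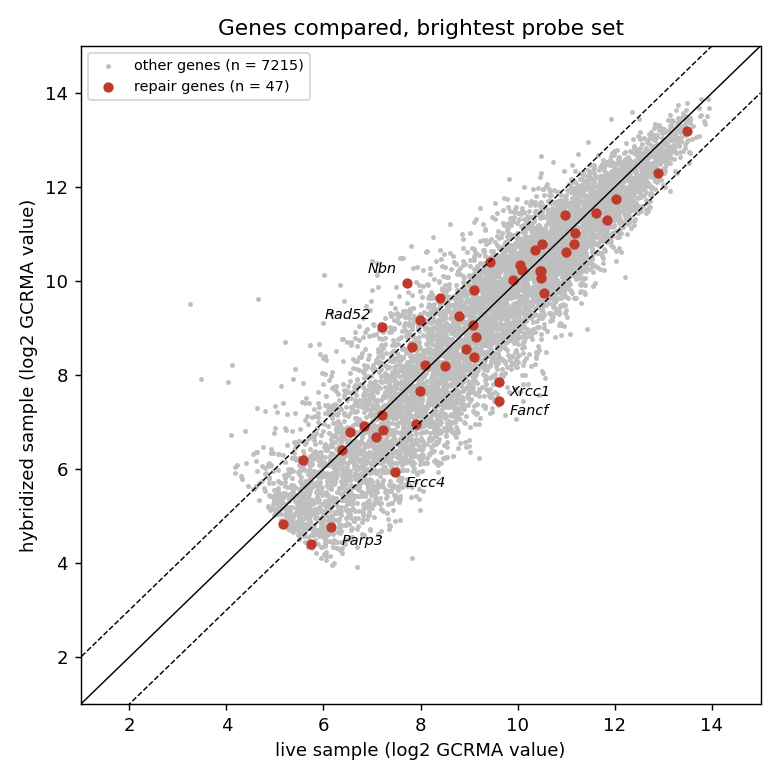
Log2 values of the brightest probe set of each of the genes compared, live sample on the x axis and hybridized sample on the y axis, 1 array each; repair genes are red, all others grey. The solid line marks equal values and the dashed lines 2-fold; 38 of the 47 repair genes lie between the dashed lines.

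Differences followed signal, as they did over the array. Of 24 repair genes averaging between 5 and 9, 8 were 2-fold apart, or 33.3%, against 34.3% of all genes in that range. Of the 23 with a mean of 9 or more, 1 was, Fancl, against 14.4% of all genes there. None of the 7 repair genes with a mean of 11 or more (Apex1, Parp1, Chek1, Ung, Rad23b, Rad1 and Msh6) was 2-fold apart, where 6.31% of all genes were. At the lower limit, Fance was just inside with a mean of 5 (4.84 against 5.16) and Rad51b just outside with 4.95 (5.31 against 4.59). The others under the limit were the meiotic MutS genes Msh4 (2.01 against 1.80) and Msh5 (2.77 against 3.23), and Rad54l2 (3.18 against 3.63), values near the lower end that have no order.

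**Figure D2:**
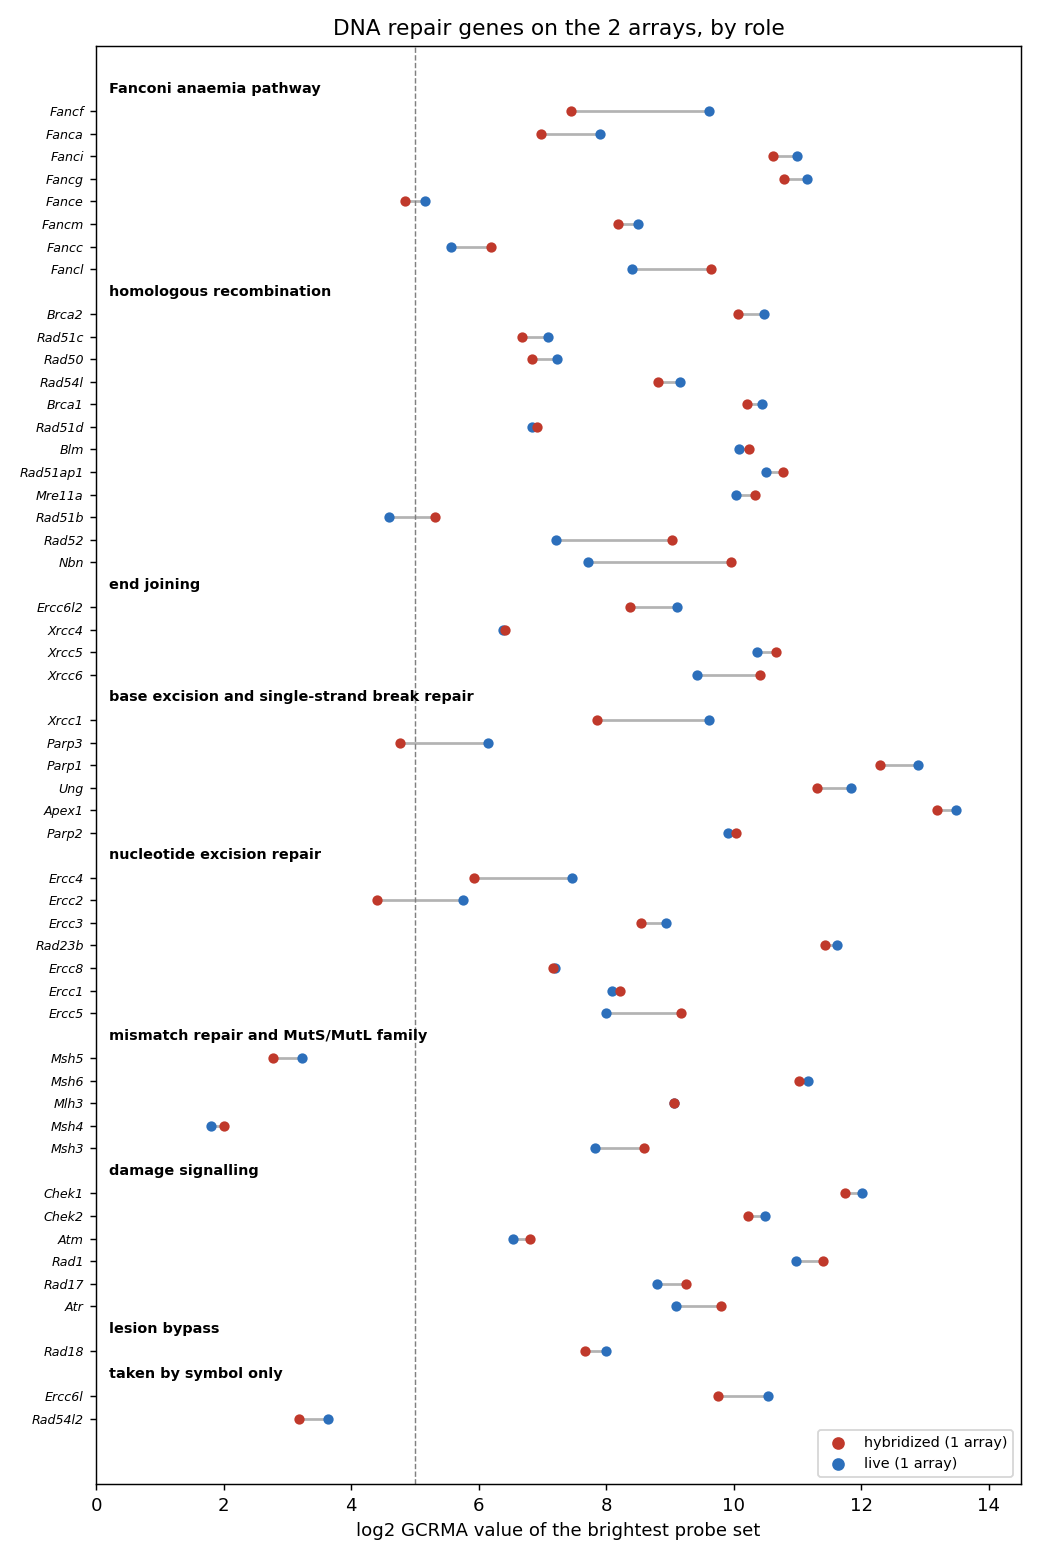
Log2 values of the brightest probe set of the 51 repair genes in the hybridized sample (red) and the live sample (blue), grouped by role, 1 array each and so no error bars; the dashed line marks the level of 5. Nbn, Rad52, Fancf and Xrcc1 have the longest bars. None of the 6 genes of damage signalling is 2-fold apart, nor is any of end joining or mismatch repair, where 23.8% of all genes compared are.

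The genes that sense and signal damage differed little at the brightest probe set. Atr, the kinase that answers stalled forks, read 9.80 and 9.10, the widest gap of the 6. Atm, the kinase that answers double-strand breaks, read 6.80 and 6.54. Their target kinases were slightly lower at that probe set: Chek1 read 11.75 and 12.02 and Chek2 10.22 and 10.49. The second probe set of Chek1 was 1.15 higher and the third differed by -0.58, so its direction is not settled. Rad17, which loads the checkpoint clamp, and Rad1, a subunit of that clamp, were 0.45 and 0.43 higher. The median of the group was 0.345, with 4 of 6 above 0 as deposited, against -0.165 and 41.1% for all genes. None of the 6 was 2-fold apart, where 23.8% of all genes were.

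The break-end complex was split. Nbn (Entrez 27354), the subunit of the Mre11 complex that recruits Atm, read 9.95 against 7.72, a 4.69-fold difference and the largest of the 51 genes at the brightest probe set. Its partners did not share it: Mre11a, the nuclease, read 10.34 and 10.04, and Rad50, the ATPase, 6.84 and 7.22. Nbn and Mre11a each have 1 probe set in the table, and the second one of Rad50 was under the level, so none of the 3 can be checked against another probe set.

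Among the recombination genes, Rad52, an annealing protein, was the other one clearly higher, at 9.03 against 7.21. It was the only one of the 9 genes 2-fold apart to have another probe set at the level, which read 8.16 and 7.15, a difference of 1.01 in the same direction. Brca1, a ubiquitin ligase that promotes recombination, read 10.21 and 10.45 at its brightest probe set and Brca2 10.07 and 10.47. Blm, the Bloom helicase, read 10.24 and 10.09. Rad54l, a motor protein of strand exchange, read 8.81 and 9.15, and Rad51ap1, which promotes strand exchange, 10.78 and 10.51. The recombination mediators Rad51c (6.68 and 7.08) and Rad51d (6.92 and 6.84) differed by less than 1.5-fold. Of the 11 recombination genes, 2 were 2-fold higher and 0 lower, or 18.2% and 0%, against 8.43% and 15.4% of all genes. Their median was 0.08, against -0.165 for all genes.

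In the Fanconi pathway, subunits of the same core complex went both ways. Fancf (Entrez 100040608), an adaptor of the core complex, read 7.45 against 9.62, a difference of -2.17 and the furthest below of all the repair genes. Fancl, the ubiquitin ligase subunit, read 9.64 and 8.41, a difference of 1.23. Fanca was lower by a little under 2-fold, at 6.97 and 7.90, and Fancc was 0.63 higher at 6.20 and 5.57. Fancg (10.79 and 11.15), Fance and the helicase Fancm (8.19 and 8.50) lay within 1.5-fold, as did Fanci (10.61, a difference of -0.39), which is a substrate of the complex. Of the 8 genes, 6 were below 0, as were 58.5% of all genes. By 2-fold, 1 was higher and 1 lower, or 12.5% each, against 8.43% and 15.4% of all genes.

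Most genes of base excision and single-strand break repair read lower in hybridized cells, as deposited. Xrcc1 (Entrez 22594), the scaffold of single-strand break repair, read 7.86 against 9.62, a 3.39-fold difference on its only probe set. Parp3, a poly(ADP-ribose) polymerase family member, read 4.77 and 6.15, and its second probe set, under the level, differed by -0.87. Parp1, the main sensor of nicks, was lower by 0.59 with 12.30 against 12.89, while its other probe sets differed by -0.16 and 0.17. Ung, which removes uracil from DNA, read 11.30 and 11.84, Apex1, the abasic site nuclease, 13.19 and 13.49, and Parp2, a relative of Parp1, 10.03 and 9.91. Of these 6 genes 5 were below 0 (58.5% of all genes) and the median was -0.565, but 4 were above 0 with control centring (75.4% of all genes). Without probe sets suffixed _x_at, _s_at or _a_at, whose probes can match several genes or several transcripts of the gene, only 3 of the 6 remained at the level, with a median of 0.12.

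Nucleotide excision repair held 3 of the 9 genes 2-fold apart, or 42.9% of its 7 genes, against 23.8% of all genes. All but Rad23b averaged between 5 and 9, where 34.3% of all genes were 2-fold apart. At a level of 7, 1 of 5 was higher and 0 lower, where 8.63% and 12.2% of all genes were. Ercc4, also known as Xpf, a subunit of the nuclease that cuts 5′ of a lesion, read 5.93 against 7.47. Its partner in that nuclease, Ercc1, read 8.22 and 8.09. Ercc5, also known as Xpg, which cuts on the 3′ side, differed the other way with 9.18 against 7.99. Ercc2, also known as Xpd, a TFIIH helicase, read 4.41 and 5.75, whereas Ercc3, the other TFIIH helicase, read 8.55 and 8.94. With a hybridized value under 5, Ercc2 reached the level only through the live value and had to differ. Rad23b, a damage recognition factor, read 11.44 and 11.62 and Ercc8, also known as Csa, of transcription-coupled repair, 7.16 and 7.20. The 2 nucleases that cut either side of a lesion thus lay on opposite sides of 0, each with 1 probe set at the level. The second probe set of Ercc4, under the level, was 1.10 higher, and the mean over both was -0.22.

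End joining, with 4 genes compared, and mismatch repair, with 3, held no gene 2-fold apart, where 23.8% of all genes were. Xrcc6 and Xrcc5, the Ku subunits, were both higher, at 10.41 against 9.43 and 10.67 against 10.36, and the first was just short of 2-fold at 0.98. Xrcc4, the ligase partner, read 6.41 and 6.38. Ercc6l2 was lower, 8.38 against 9.11. Msh6, which recognises mismatches, read 11.02 and 11.17, Mlh3, a MutL protein, 9.06 and 9.07, and Msh3, which recognises larger loops, 8.59 and 7.82. Rad18, a ubiquitin ligase that starts lesion bypass, read 7.66 and 7.99. Ercc6l, at 9.75 against 10.54, lay 0.79 below the live sample.

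The picture changed when the other probe sets of the same genes were read. For 13 repair genes, 20 further probe sets, dimmer than the brightest one by mean, were at the level. Of these 20, 10 were higher by 2-fold or more in hybridized cells and 0 lower, or 50% and 0%. In the live sample 4 of these 10 were under 5, so they reached the level only through the hybridized value and had to differ. With 5 or more asked of both arrays, 6 of 16 were higher, against 18.7% of all such probe sets. Over all 4145 such probe sets on the array 21.3% were 2-fold higher and 8.37% lower, so dimmer probe sets leaned the same way across the array. The gap between the shares was not tested. With the probe sets under 5 in the live sample included, the median difference was 0.87 for repair genes and 0.12 for all. By gene, 8 of the 13 had a probe set 2-fold higher, or 61.5%, against 27.9% of 2720 genes. None, or 0, had one 2-fold lower, against 11.1%. Among the 8, Brca1, Rad51c and Ercc6l2 counted only through probe sets under 5 in the live sample, which had to differ. In 7 of these 8 genes the brightest probe set was not 2-fold apart, and in 5 it was below 0. This reading of the dimmer probe sets was chosen after their values had been seen. Repair genes outside the symbols, described below, leaned the same way. Of their 49 dimmer probe sets 16 were 2-fold higher, or 32.7%, and 1 lower, or 2.04%. By gene, 16 of 36 had a higher one, or 44.4%. These counts also include probe sets under 5 in the live sample.

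**Figure D3:**
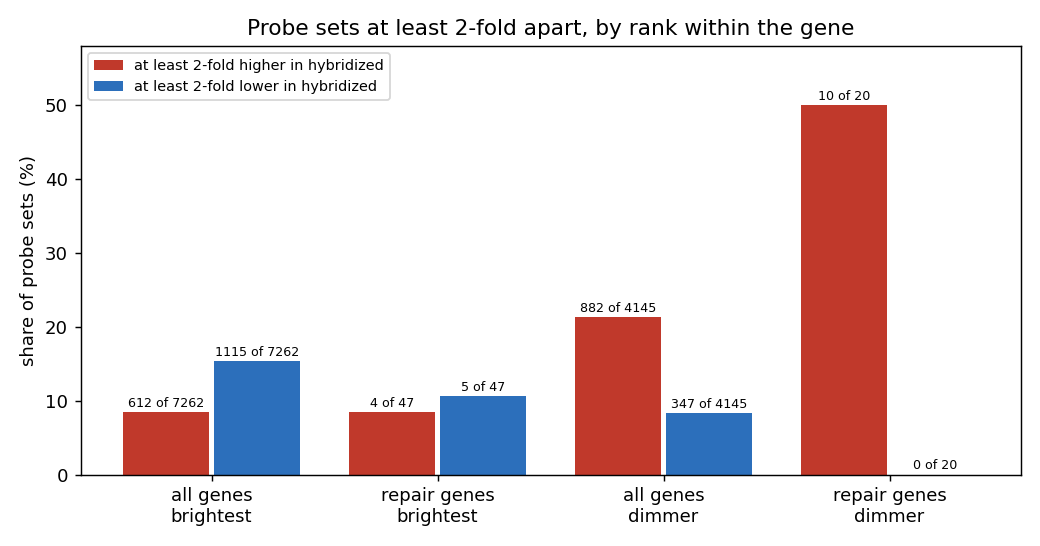
Share in percent of probe sets past 2-fold upward (red) or downward (blue) in hybridized cells, for the brightest probe set of a gene and for its dimmer ones, all at a mean log2 value of 5 or more; the counts stand above the bars, and there are no replicates. At the brightest probe set 8.51% of repair genes and 8.43% of all genes are higher. At the dimmer ones the shares are 50% and 21.3%. Of the 10 repair probe sets in the 50%, 4 read under 5 in the live sample and had to differ.

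Brca1 showed it most. Beside the brightest probe set (10.21 and 10.45), the next one read 8.36 and 3.99, a difference of 4.37, and the one after it 7.26 and 4.31, a difference of 2.95. All of these are assigned to the same GenBank record in the platform table, and a further probe set from another record was near the lower end at 2.21 and 2.19. The signal of this pair was under the level in the live sample, so the size of both differences is uncertain. So the mean over the 4 probe sets of Brca1 was 1.78 higher where the brightest was 0.24 lower.

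Rad51c behaved likewise, with a second probe set at 7.24 against 3.94, the live value again under the level, where the brightest gave -0.40. Ercc6l2 had dimmer probe sets at 6.33 against 3.95 and, with a mean under the level, 5.29 against 3.19. Rad51ap1 had 4 probe sets from 1 record with differences of 0.27, -0.20, 2.15 and 1.30 in order of falling brightness. Its 2 brightest gave no difference of note and its 2 dimmest each exceeded 2-fold. The second probe set of Rad18 read 7.63 and 6.16, that of Xrcc4 6.36 and 5.31, and the second of Chek1 11.26 and 10.11. For Chek1 the third differed by -0.58, so its probe sets lay on both sides of 0. Ercc8 was added after its values were seen. It read 6.78 and 2.73 on its second probe set, whose mean of 4.755 lay just under the level, against 7.16 and 7.20 on its brightest. Other dimmer probe sets just under the level differed little. That of Ercc6l2 with a mean of 4.755 differed by 0.39 and that of Rad51d with 4.865 by 0.17.

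**Figure D4:**
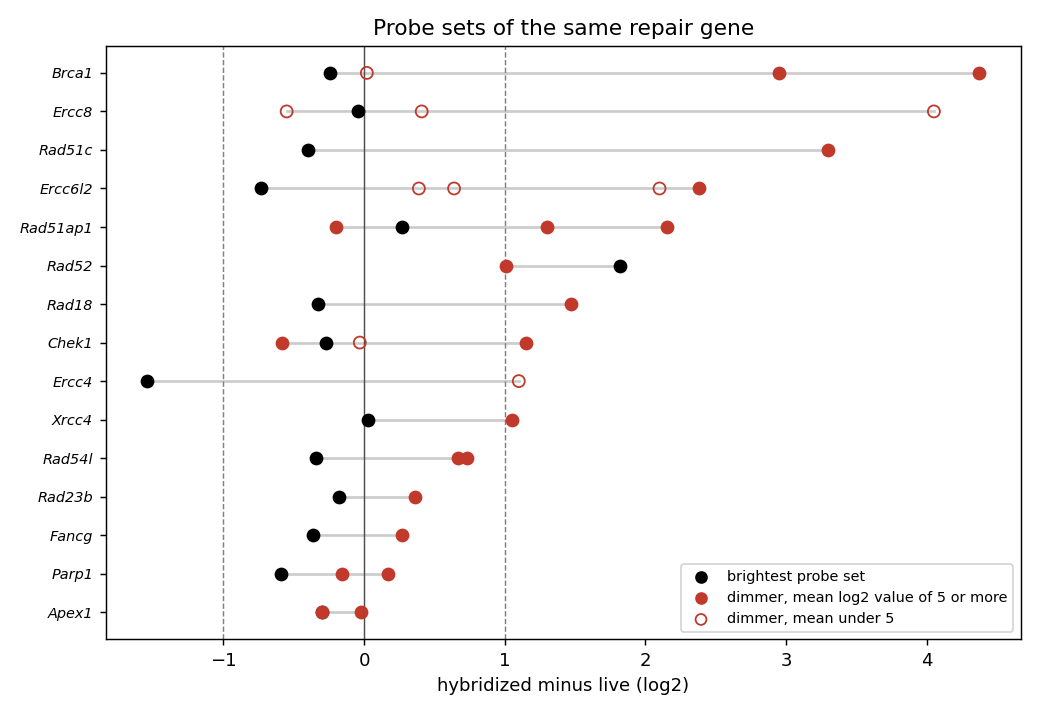
Difference of every probe set (hybridized minus live, log2 units, x axis) for the 13 repair genes with more than 1 probe set at the level, with Ercc8 and Ercc4 added; black marks the brightest probe set, filled red a dimmer one at the level and open red one under it, and dashed lines mark 2-fold. In Brca1, Ercc8, Rad51c and Ercc6l2 a dimmer probe set lies more than 2 log2 units above a brightest one that sits between -0.73 and -0.04. All these dimmer probe sets read under 5 in the live sample. Those at the level reached it only through the hybridized value and had to differ. Other genes whose dimmer probe sets were all under the level, with differences on both sides of 0, are not shown.

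In Rad54l the further probe sets were 0.73 and 0.67 higher, each over 1 log2 unit above its brightest at -0.34. In the rest no probe set was 2-fold apart: that of Rad23b was 0.36 higher and that of Fancg 0.27, and those of Apex1 differed by -0.30 and -0.02. The count depended on level. At a mean of 7 or more 2 of 11 dimmer probe sets of repair genes were higher, 18.2% against 19.3% of all, a share at the background. With a mean from 5 to under 7, 8 of 9 were, where 25.4% of all were, but 4 of these 8 are the ones under 5 in the live sample. Of the dimmer probe sets sharing a record with the brightest one, 5 of 10 were higher, against 22.6% of 1620 over the array. Of those from another record 5 of 9 were, against 21.5% of 1625, and 1 has no record. These counts include the 4 under 5 in the live sample. Over all 91 probe sets, 5 read 6 or more in hybridized cells but under 5 in live cells, namely both of Brca1 above and 1 each of Rad51c, Ercc8 and Ercc6l2, or 5.49% against 0.947% of all 20380. The reverse held for 1, of Parp3, or 1.10% against 0.638%. Such values are over 2-fold apart by definition, and apart from Ercc8 the 5 are again those that had to differ. The shares are not like for like. Of the repair genes 47 of 51 were at the level, against 7262 of 12393 over the array. The 5′ control probe sets of Actb, Gapdh and Tfrc were higher in the hybridized sample too, as given above, but the sources used here do not place these probe sets on their transcripts, and the part of transcript position was not tested.

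Other genes of the same routes, from a list of 122 repair and damage signalling genes outside the symbols above, were read in the same way. Of 90 measured, 86 were compared: 14, or 16.3%, were higher by 2-fold or more and 13, or 15.1%, lower by as much, against the 8.43% and 15.4% of all genes, with a median of -0.015. Lesion bypass, in which specialised polymerases copy past damage, had 6 of 14 genes higher and 1 lower. Ube2b, the Rad6 enzyme that works with Rad18, read 11.06 against 9.59. Ube2v2, a partner of Ubc13 in extending the chain, read 12.71 and 11.25. The ligases that use them, Hltf (10.36 and 8.91) and Shprh (10.37 and 9.33), were higher too. So were the bypass polymerases Polh (9.21 and 7.77) and Poli (7.89 and 6.70). The second probe sets of Ube2v2 (1.36) and Hltf (2.53) were also 2-fold higher, and that of Ube2b was 0.80 higher. Mad2l2, a subunit of polymerase zeta, was the lower one at 6.59 against 7.70. After centring on the median gene or loess 6 of 14 were still higher, and after quantile normalization 5, where 11.1%, 11.5% and 8.04% of all genes were. With control centring 9 were, where 28% of all genes were, and without the suffixed probe sets 5 of 12, where 10.3% were.

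In recombination the other genes split, 4 higher and 5 lower of 20, or 20% and 25%, against 8.43% and 15.4% of all genes. Brcc3, a deubiquitinase of the Brca1-A complex, read 9.58 against 6.97, with a second probe set 1.34 higher. Psmc3ip, also known as Hop2, a recombinase cofactor, read 8.33 and 6.06, Dmc1, the meiotic recombinase, 7.76 and 6.73, and Smc6, of the Smc5/6 complex, 10.76 and 9.72. On the other side lay 3 of the RecQ helicases, Recql4 (5.82 and 7.62), Recql5 (5.16 and 6.81) and Recql (9.94 and 11.01), the nuclease Mus81 (5.17 and 6.91) and the topoisomerase Top3a (5.34 and 6.42). The RecQ helicases Wrn, 0.87 higher at 9.41 and 8.54, and Blm, given above, did not share their direction. Of the lower 5 only Recql had further probe sets at the level, and these differed by -0.67 and 1.07. Those of Smc6 differed by -0.33, 1.99, 0.61 and -0.15 in order of falling brightness.

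Elsewhere, the clamp loader subunits Rfc4 (11.53 and 9.94) and Rfc3 (9.83 and 8.57) were higher, although a second probe set of Rfc4 differed by -0.67. Rad9a, a subunit of the checkpoint clamp with Rad1, was lower at 8.20 against 9.36, as was the ubiquitin ligase Rnf8 at 8.60 against 9.61. Thus 4 of the 12 other damage signalling genes compared were 2-fold apart, or 33.3%, against 23.8% of all genes. In nucleotide excision Xpa, a damage verification factor, read 6.33 and 4.54 and Xpc, the damage sensor, 6.45 and 7.82. Xpa was under 5 in the live sample and reached the level only through the hybridized value. The TFIIH kinase Cdk7 was 1.49 higher but differed by -0.14 on its second probe set, and Rpa1, of the single-strand binding complex, was lower at 11.58 against 12.73 with -0.10 on its second. Fen1, the flap nuclease, read 10.64 and 12.02 at its brightest probe set and 9.81 and 9.27 at the other. The end joining polymerases Poll (4.80 and 6.36) and Polm (5.03 and 6.18) were both lower. Poll was under 5 in hybridized cells and reached the level only through the live value. In base excision 12 of 14 genes lay below 0, as did 58.5% of all genes, but only 1, Fen1, by 2-fold, and 8 of the 14 lay above 0 with control centring, as did 75.4% of all genes.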

How the data were processed

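The authors deposited 1 log2 value per probe set and array, made with GCRMA and affy per the submitters' processing notes. The sources used here name neither their versions nor the set of arrays normalized together. The log base was inferred from the method and the range of 1.02 to 14.24. GCRMA corrects for probe base composition and normalizes arrays to each other, so a shift common to all genes can be lost. Of 22690 probe sets, 64 are controls, 20380 have 1 gene in the platform table, 691 several and 1555 none named; only single-gene probe sets were used. All 51 member symbols matched RefSeq (GRCm38.p6) through Entrez IDs. No coordinates or probe sequences were used.

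The brightest probe set by mean stood for a gene. With 1 array a group no model was fitted, and precision is limited by having so few arrays. The genes named were every member, the other repair genes at least 2-fold apart, markers at the level and some fibroblast markers under it. Further probe sets were given for some genes. Members, lists and the reading of dimmer probe sets were chosen with earlier results of these data known. Alternatives were levels of 4, 7 or none, the mean over probe sets, no suffixed probe sets, centring on the median gene or the controls, loess (span 0.3), quantile normalization, 1.5-fold and 4-fold calls and fewer members. Steps were tested on simulated data. Python 3.11.15, numpy 2.4.6, pandas 2.3.3, statsmodels 0.14.6 and matplotlib 3.10.9 were used.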

Additional observations from a re-analysis of the deposited data

How the results depend on the processing

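No paired analysis was possible because each group has 1 array. The main counts were 4 repair genes higher and 5 lower with a median of -0.24, and 14 and 13 with -0.015 for the other repair genes. A level of 4, no limit and quantile normalization moved none of these by over 1.5 times or 0.1 log2. Nor, for the repair genes, did leaving out Ercc6l and Rad51ap1, also with Rad54l2, or Ercc6l, Ercc6l2 and Rad54l2 (median -0.18). The last 2 of these sets were chosen after seeing the data. Rad54l2 was under the level and so not compared, and leaving it out could change nothing. At a level of 7, 2 of 38 repair genes were lower, and of the others 7 of 71, with a median of 0.21. Of all genes 12.2% were lower there, with a median of -0.1. The mean over probe sets turned the repair median to 0.125 and gave 0.22 for the others, with -0.05 for all genes. Without _x_at, _s_at and _a_at the repair median was 0.12 with 3 of 39 lower, where all genes had -0.08 and 13.8%. Cdk7 then differed by -0.14. With _a_at kept, chosen after seeing the data, the repair median was -0.02. The second brightest probe set, also chosen then, gave 7 higher and 0 lower of 13, with a median of 1.01. Of all 2720, 18.7% and 9.04% were called, with a median of 0.08. Those of Brca1, Rad51c and Ercc6l2, among the 7, were under 5 in the live sample. Median centring gave a median of -0.075, and for the others 0.15 with 6 of 86 lower, where 11.5% of all genes were. Control centring gave 12 higher and 2 lower with 0.48, and for the others 34 and 2 with 0.70. Of all genes 28% and 3.5% were called there, with a median of 0.55. Loess gave 3 of 47 lower with 0.042, and for the others 8 of 86 with 0.24, where 9.75% of all genes were lower. At 1.5-fold the repair genes had 8 higher and 9 lower and the others 22 and 20. At 4-fold they had 1 and 1, and 2 and 0. Shares of all genes by direction were not computed at these 2 calls, so the counts have no background. So the sign of the repair median is not settled by these arrays. Of the dimmer probe sets 10 of 20 were higher; 6 of 16 were with 5 or more on both arrays (18.7% of all), 2 of 11 at a level of 7 (19.3%), 3 of 6 without suffixed probe sets (25.6%), 5 of 20 at 4-fold (6.66%) and 13 of 20 with control centring (43%), with 0 lower under each alternative run. These settings for dimmer probe sets were chosen after seeing the data. Except for 5 or more on both arrays and the level of 7, they kept probe sets that were under 5 in the live sample. Single-gene differences moved by more than 0.73 for 16 of 74 genes when probe sets were averaged. This limit is the standard deviation of the gap between the 2 brightest probe sets of a gene, divided by the square root of 2. Genes with 1 probe set, among them 24 of the 47 repair genes compared, could not move. Values near the lower end are limited by background, and no detection calls were used.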
